A study of Mus musculus with 3 samples.

Results

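Immunity-related GTPases (IRG) and guanylate-binding proteins (GBP) are families of GTP-hydrolysing enzymes whose genes are transcribed in response to interferon-γ. Of the 32285 genes in the count matrices, 10 such genes were examined: the IRG genes *Iigp1*, *Irgm1*, *Irgm2*, *Igtp*, *Ifi47*, *Tgtp1* and *Tgtp2* and the GBP genes *Gbp2*, *Gbp3* and *Gbp7*. They were chosen from these libraries for the strong rise of *Iigp1* (ENSMUSG00000054072) and *Ifi47* (ENSMUSG00000078920) in mice with alopecia areata (AA). Their levels in AA against the control library are therefore a description and support nothing.

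The libraries were made from the dorsal skin of female C3H/HeN mice aged 25 weeks, with the skin of 7 to 8 mice pooled in each, by 10x Genomics 3′ single-cell RNA sequencing after digestion with collagenase D and a Percoll gradient. The Neg library came from vehicle control mice. The AA library came from the AA model, in which skin-draining lymph node cells of mice with AA were expanded in culture and transferred to naïve mice. The AA+Ab library came from model mice given an antibody that neutralizes the chemokine CXCL12, at a dose and schedule not given in the sources used here. Each group was 1 library, so no difference between groups had a replicate check, and every interval below is an exact 95% interval for counting error only. Transferred cells and cells of the host cannot be told apart in these counts.

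Interferon-γ released by T cells and natural killer cells binds its receptor and, through transcription factors such as IRF1, fills responding cells with IRG and GBP proteins. In mice, *Irgm1*, *Irgm2* and *Igtp* encode regulatory IRG proteins that sit on the membranes of the cell and hold the effector IRG proteins in an inactive state. The effectors, encoded by *Iigp1*, *Ifi47*, *Tgtp1* and *Tgtp2*, load onto vacuoles that hold intracellular parasites and bacteria, and GBP proteins coat the same vacuoles and help to break them. In AA, interferon-γ acts on hair follicles that normally present little antigen to T cells.

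Cells with at most 10% mitochondrial UMIs (unique molecular identifiers, each counting 1 captured RNA molecule) and at least 200 genes were kept. These were 6582 cells with 119193310 UMIs in Neg, 10433 cells with 135609481 UMIs in AA and 9832 cells with 139663314 UMIs in AA+Ab. Median UMIs per cell were 13694.5 in Neg, 11177 in AA and 11371 in AA+Ab. The libraries shared few cell barcodes, 18 between Neg and AA, 17 between Neg and AA+Ab and 28 between AA and AA+Ab. Levels are given as CPM, the standard scaling of the UMIs of a gene to a fixed total of UMIs of the same cells. A 3′ library gives each RNA molecule about 1 tag whatever its length, so levels were not scaled by length.

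The libraries also differed in what was recovered from the skin. Summed over 4 of 4 hemoglobin genes, red blood cell RNA stood at 123 CPM in Neg, 3.33 CPM in AA and 113 CPM in AA+Ab, with *Hbb-bs* the most abundant. The 5 neutrophil markers, led by *S100a9*, summed to 88.9, 21.2 and 157 CPM in the same order, and the 10 markers of dendritic cells and macrophages (DC/Mac), led by *Cd74*, to 107, 225 and 123 CPM. Companion layer markers summed to 77.9, 165 and 103 CPM and CD4 T cell markers to 7.77, 15.6 and 10.0 CPM. Gamma-delta T cell markers summed to 32.1, 12.7 and 31.1 CPM and B cell markers to 21.3, 61.7 and 133 CPM. No marker of these lists was at 0 in a library. Their part in the levels of the GTPase genes was not tested, beyond the values by cell class given below.

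*Iigp1*, the effector IRG that gave the largest rise, was counted in 98 UMIs in Neg, 7115 in AA and 725 in AA+Ab. Those are 0.822 CPM (0.667 to 1.00), 52.5 CPM (51.3 to 53.7) and 5.19 CPM (4.82 to 5.58). It was less abundant than *Gbp2*, *Gbp7*, *Irgm1*, *Igtp* and *Irgm2* in Neg and the most abundant of the 10 genes in AA. The AA to Neg ratio of CPM was 63.8 (52.3 to 78.7). The AA+Ab to AA ratio was 0.0989 (0.0915 to 0.107), and AA+Ab remained above Neg at a ratio of 6.31 (5.11 to 7.88). *Ifi47*, the other effector that chose the group, had 59, 891 and 152 UMIs, at 0.495 CPM in Neg, 6.57 CPM in AA and 1.09 CPM in AA+Ab. Its AA to Neg ratio was 13.3 (10.2 to 17.6), its AA+Ab to AA ratio 0.166 (0.139 to 0.197) and its AA+Ab to Neg ratio 2.20 (1.62 to 3.02), the last with a log2 value of -0.04 when each cell was thinned to 1000 UMIs. Thinning also moved the log2 AA to Neg ratio of *Ifi47* from 3.73 to 2.21 and its AA+Ab to AA ratio from -2.59 to -2.24. Like *Iigp1*, it was high in AA and lay between the others in AA+Ab.

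*Tgtp1* and *Tgtp2* are neighbouring, nearly identical copies on chromosome 11, so the split of UMIs between them is uncertain and their sum is the safer value. Together they had 8 UMIs in Neg, 183 in AA and 21 in AA+Ab, or 0.0671, 1.35 and 0.150 CPM. Summed, the AA to Neg ratio was 20.1 (9.99 to 47.3) and the AA+Ab to AA ratio 0.111 (0.0673 to 0.175). This pair was rare in every library, and fewer UMIs were left when each cell was thinned to 1000 UMIs. The log2 AA to Neg ratio was then 2.28 (0.19 to 5.45) in place of 4.33, and the log2 AA+Ab to AA ratio -2.32 (-4.74 to -0.51) in place of -3.17. The few Neg UMIs leave the AA+Ab to Neg ratio of 2.24 with an interval from 0.953 to 5.85, so a difference between those libraries was not detectable at this depth.

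As counted, the regulatory genes had smaller AA to Neg ratios than the effector genes, a difference that was not tested. It depended on depth. Thinned to 1000 UMIs per cell, the log2 AA to Neg ratio of *Igtp* was 2.13 in place of 2.66. That is close to the thinned values of 2.21 for *Ifi47* and 2.28 for *Tgtp1* and *Tgtp2* summed. *Irgm1*, at 1.68, and *Irgm2*, at 1.39, stayed below these, and *Iigp1* was at least 5.95 under every alternative. *Igtp* had 188 UMIs in Neg, 1350 in AA and 316 in AA+Ab (1.58, 9.96 and 2.26 CPM), an AA to Neg ratio of 6.31 (5.41 to 7.39). *Irgm1*, whose product acts in autophagy and mitochondrial quality control as well as against bacteria, had 276, 1258 and 393 UMIs (2.32, 9.28 and 2.81 CPM) and a ratio of 4.01 (3.51 to 4.58). *Irgm2* had 121, 636 and 200 UMIs (1.02, 4.69 and 1.43 CPM) and a ratio of 4.62 (3.80 to 5.66). In AA+Ab against AA the ratios were 0.227 for *Igtp*, 0.303 for *Irgm1* and 0.305 for *Irgm2*. With each cell thinned to 1000 UMIs these were -2.14, -0.92 and -0.85 on the log2 scale, against -2.14, -1.72 and -1.71 unthinned, and the AA to Neg value of *Irgm2* went from 2.21 to 1.39. In AA+Ab the regulatory genes lay just above Neg as counted, at 1.43 (1.19 to 1.73) for *Igtp*, 1.22 (1.04 to 1.42) for *Irgm1* and 1.41 (1.12 to 1.78) for *Irgm2*. With each cell thinned to 1000 UMIs the log2 ratios were -0.01, 0.77 and 0.54, against 0.52, 0.28 and 0.50 unthinned. The annotated spans of *Igtp* (chr11:58199556-58207591, plus strand) and *Irgm2* (chr11:58199618-58222782, plus strand) overlap, so the assignment of UMIs between these genes is uncertain.

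Among the GBP genes, *Gbp2*, whose protein is anchored to membranes by a lipid tail, had 405 UMIs in Neg, 2218 in AA and 763 in AA+Ab. That is 3.40, 16.4 and 5.46 CPM, an AA to Neg ratio of 4.81 (4.33 to 5.36) and an AA+Ab to AA ratio of 0.334 (0.307 to 0.363). *Gbp7* followed it closely with 379, 1803 and 707 UMIs, or 3.18, 13.3 and 5.06 CPM. The *Gbp7* ratios were 4.18 (3.74 to 4.68) for AA to Neg and 0.381 (0.349 to 0.416) for AA+Ab to AA. *Gbp3* was rarer, with 65, 264 and 71 UMIs (0.545, 1.95 and 0.508 CPM). It gave the smallest AA to Neg ratio of the 10 genes, 3.57 (2.71 to 4.76), and its AA+Ab level did not differ from Neg beyond counting error (ratio 0.932, 0.656 to 1.33).

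**Figure D1:**
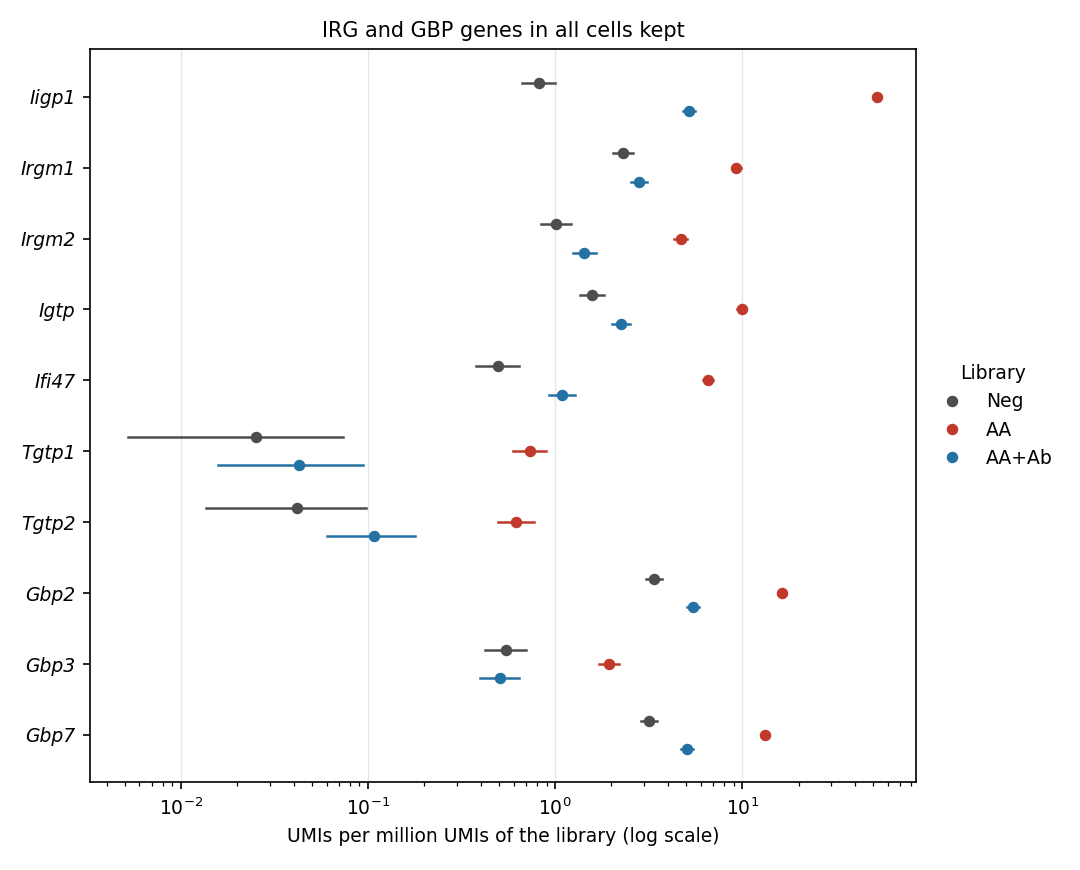
Level of each of the 10 genes in the Neg, AA and AA+Ab libraries, in CPM on a log axis; points are 1 library each and bars are exact Poisson 95% intervals for counting error. The AA point is the highest for every gene, from 0.619 CPM for *Tgtp2* to 52.5 CPM for *Iigp1*.

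Summed over the 10 genes, 1599 UMIs were counted in Neg, 15718 in AA and 3348 in AA+Ab. The sum stood at 13.4 CPM (12.8 to 14.1), 116 CPM (114 to 118) and 24.0 CPM (23.2 to 24.8). The AA to Neg ratio was 8.64 (8.21 to 9.10), the AA+Ab to AA ratio 0.207 (0.199 to 0.215) and the AA+Ab to Neg ratio 1.79 (1.68 to 1.90). These comparisons share libraries: AA to Neg and AA+Ab to AA share AA, and AA to Neg and AA+Ab to Neg share Neg. *Iigp1* alone made up 6.13% of the summed UMIs in Neg, 45.3% in AA and 21.7% in AA+Ab. Without it the sum was 12.6, 63.4 and 18.8 CPM, with ratios of 5.04 for AA to Neg and 0.296 for AA+Ab to AA. The IRG genes as a whole rose from 6.29 to 84.3 CPM, a ratio of 13.4, and the GBP genes from 7.12 to 31.6 CPM, a ratio of 4.44. Without *Iigp1* the IRG genes rose from 5.47 to 31.8 CPM, a ratio of 5.82 (5.36 to 6.33), and *Irgm1*, *Irgm2* and *Igtp* summed had a ratio of 4.87 (4.46 to 5.33). Of the rise of the sum from Neg to AA, 10.3% was left in AA+Ab.

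With 1 CPM added to each level, 7 of the 10 genes were at least 2-fold higher in AA than in Neg, against 0.783% of the 17890 genes with at least 60 UMIs over the 3 libraries. None of the 10 was lower by that measure, against 0.257% of all. This contrast chose the genes, so nothing is read from the count. The exceptions were the low-level genes *Tgtp1*, *Tgtp2* and *Gbp3*, whose ratios the added CPM pulls towards 1. Ranked on this scale, *Iigp1* was number 1 of the 17890 genes, *Ifi47* number 6, *Igtp* number 10, *Gbp2* number 15, *Gbp7* number 24, *Irgm1* number 30 and *Irgm2* number 42. From AA to AA+Ab, 7 of the 10 were at least 2-fold lower, against 1.05% of all genes, and none was higher, against 0.307%. *Iigp1* had the largest fall of all 17890 genes. Because the genes were chosen as high in the AA library, a lower value in another library was favoured by the choice. From Neg to AA+Ab only *Iigp1* passed 2-fold upwards, 1 of 10 against 0.229% of all genes, and the intervals of 7 of the 10 ratios lay above 1, as did those of 21.1% of all genes.

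The rest of the families was described by a list of 13 further genes, of which 11 were measured (*Gbp11* and *Gm12250* were not analysed here). In AA, 4 of the 11 were at least 2-fold higher than in Neg (0.783% of all genes) and none lower (0.257%), and 4 were at least 2-fold lower in AA+Ab than in AA (1.05%). *Gbp2b*, next to *Gbp2* on chromosome 3, was the most abundant of them in AA and AA+Ab, at 4.05 CPM in Neg, 20.9 CPM in AA and 7.31 CPM in AA+Ab (AA to Neg 5.15, 4.67 to 5.68). The IRG gene *Gm4951*, a neighbour of *Iigp1* on chromosome 18, stood at 0.352, 3.52 and 0.294 CPM, rising with a ratio of 9.98 (7.27 to 14.0) and not differing from Neg beyond counting error in AA+Ab (ratio to Neg 0.833, 0.528 to 1.31). *Gbp6* went from 0.956 to 3.96 and then 1.07 CPM, and *Gbp9* from 0.445 to 2.33 and then 0.587 CPM. The spans of *Gbp4*, *Gbp8* and *Gbp9* overlap, so their values are uncertain. The distant IRG relative *Irgq* was flat, at 5.54, 5.88 and 6.14 CPM. *Irgc1*, a relative known from testis and chosen here after its values were seen, was also flat, at 1.12, 1.19 and 1.29 CPM.

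The ligand was rare. *Ifng* had 60 UMIs in Neg, 754 in AA and 271 in AA+Ab, or 0.503, 5.56 and 1.94 CPM, and the AA to Neg ratio was 11 (8.49 to 14.6). T cell-like cells held 56, 716 and 255 of those UMIs. *Ifngr1*, the ligand-binding receptor chain, was abundant throughout at 144, 179 and 161 CPM. *Irf9* went from 9.88 to 21 and then 12.5 CPM. *Irf1* stood at 39.7 CPM in Neg, 78.7 CPM in AA and 66.1 CPM in AA+Ab. In AA+Ab it lay nearer to AA than to Neg, as *Socs3* did, whereas the GTPase sum lay nearer to Neg. This difference was not tested. The kinase gene *Jak1* stood at 161, 233 and 158 CPM, and the feedback inhibitors *Socs3* and *Ptpn2* at 274, 388 and 400 CPM and at 70.8, 81.2 and 69.0 CPM. Of the 12 genes of this signalling list, 3 were at least 2-fold higher in AA than in Neg (0.783% of all genes), with a median fold of 1.61, and 2 were at least 2-fold lower in AA+Ab than in AA (1.05%). The median over all 17890 genes was 0.972 for AA to Neg.

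Other genes that interferon-γ induces were listed apart from the GTPases, which were chosen for their rise and cannot be ranked against them. Of 25 listed, 24 were measured (*Cxcl11* was not analysed here) and 23 tested: 4 were at least 2-fold higher in AA than in Neg (0.783% of all genes), with a median fold of 1.53, and 2 were at least 2-fold lower in AA+Ab than in AA (1.05%). The chemokine *Cxcl9* went from 0.965 to 18.5 and then 1.96 CPM (AA to Neg 19.1, 15.9 to 23.3). The ubiquitin-like modifier *Ubd* went from 0.378 to 3.86 and then 0.444 CPM, and the checkpoint ligand *Cd274* from 3.91 to 10.1 and then 6.66 CPM. The invariant chain gene *Cd74* rose from 67.7 to 140 CPM and was 77.6 CPM in AA+Ab. The antigen presentation genes *B2m*, *H2-K1*, *H2-D1* and *Psmb8* began from high levels and had AA to Neg ratios of 1.44, 1.40, 1.26 and 1.61.

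Genes named for type I interferon, many of which interferon-γ also induces, were 21 tested: 12 were at least 2-fold higher in AA than in Neg (0.783% of all genes), with a median fold of 2.26, and 11 at least 2-fold lower in AA+Ab than in AA (1.05%). The difference between lists was not tested. *Ifi44* went from 0.352 to 4.28 and then 0.544 CPM, *Rtp4* from 0.931 to 6.94 and then 1.5 CPM, *Zbp1* from 0.873 to 5.52 and then 1.07 CPM, and *Ifit1* from 1.17 to 5.42 and then 0.773 CPM. The more abundant *Bst2*, *Stat2*, *Usp18* and *Ifih1* had AA to Neg ratios of 2.36, 2.04, 1.90 and 1.49. *Mx1* and *Mx2* were not analysed here. These counts do not separate the interferons, whose target lists share genes.

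ATG8 proteins and their partners guide GTPases to vacuoles. Of 13 genes for their conjugation and for targeting, none was at least 2-fold higher (0.783% of all genes) or lower (0.257%) in AA than in Neg, with a median fold of 1.07, and none was lower (1.05%) or higher (0.307%) by that measure in AA+Ab than in AA. *Map1lc3b* stood at 221, 255 and 254 CPM, *Gabarap* at 219, 233 and 236 CPM and *Map1lc3a* at 185, 184 and 192 CPM. *Atg3* was at 91.8, 108 and 90.8 CPM. The cargo receptor *Sqstm1* and the antibody receptor *Trim21* rose beyond counting error, with AA to Neg ratios of 1.47 (1.43 to 1.51) and 1.51 (1.28 to 1.80). Of 11 genes for inflammasomes and pyroptosis, into which vacuoles opened by GBP proteins feed, none passed 2-fold in AA against Neg, with a median fold of 1.04 and the same shares over all genes. *Casp4* went from 26.0 to 43.3 and then 30.9 CPM and *Casp1* from 7.62 to 12.3 and then 8.43 CPM, while *Casp8* stood at 17.8, 16.8 and 16.4 CPM. *Pycard* fell from 70.2 to 53.3 CPM and was 63.2 CPM in AA+Ab. *Nlrp3* and *Il1b* were at least 2-fold higher in AA+Ab than in AA (0.307% of all genes): *Nlrp3* stood at 1.38, 0.774 and 3.04 CPM and *Il1b* at 11.4, 8.96 and 27.5 CPM, the order in which the neutrophil markers stood.

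Cells were clustered with the GTPase, interferon and other listed genes left out, and clusters were named from marker genes. Keratinocyte-like cells were 5692 in Neg, 9158 in AA and 8597 in AA+Ab, and held 75.4%, 88.7% and 81.2% of the UMIs of the 10 genes but 93.7%, 94.3% and 93.9% of all UMIs. In them the summed level was 10.8 CPM (10.2 to 11.4) in Neg, 109 CPM (107 to 111) in AA and 20.7 CPM in AA+Ab. The AA to Neg ratio was 10.1 (9.52 to 10.7), above that of all cells, and the AA+Ab to AA ratio was 0.190 (0.183 to 0.198). The effector genes gave the largest ratios there. *Iigp1* had 33 UMIs in keratinocyte-like cells of Neg, 6601 of AA and 615 of AA+Ab, a ratio of 175 (124 to 254) for AA to Neg. *Ifi47* had 17, 732 and 91 UMIs, a ratio of 37.6 (23.3 to 64.9). *Tgtp2* had 0, 61 and 2 UMIs, at least 17.8-fold higher in AA than in Neg against a floor of 3 UMIs. *Gbp2*, with 360, 2017 and 688 UMIs, had a ratio of 4.89 (4.37 to 5.49), close to its value in all cells. By the 2-fold measure 7 of the 10 genes were higher in AA than in Neg in these cells, against 0.605% of 16870 genes, and 7 were lower in AA+Ab than in AA, against 0.966%.

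Outside the keratinocytes the order of levels was another one. Dermal fibroblast-like cells (48, 115 and 31 cells in Neg, AA and AA+Ab) had the highest summed level among classes with at least 30 cells in every library, at 113 CPM in Neg, 484 CPM (439 to 533) in AA and 138 CPM in AA+Ab. Their AA to Neg ratio was 4.29 (3.31 to 5.64), or 2.10 on the log2 scale, and 1.49 on that scale without doublets. DC/Mac-like cells (44, 110 and 85 cells) followed in AA, at 53.6 CPM, 339 CPM (297 to 386) and 98.8 CPM, a ratio of 6.33 (3.87 to 11.1). *Iigp1* in DC/Mac-like cells had 0 UMIs in Neg, 57 in AA and 0 in AA+Ab, so it was at least 8.90-fold higher in AA than in Neg. In fibroblast-like cells *Iigp1* was present in Neg as well, at 16.8 CPM, and stood at 207 CPM in AA and 41.4 CPM in AA+Ab. Melanocyte-like cells (38, 62 and 71 cells) stood at 18.7, 325 (289 to 365) and 43.1 CPM. A single AA cell held 86 of the 287 melanocyte-like UMIs, and without it the AA level was 230 CPM (199 to 264). Without the richest cell of each library the AA to Neg ratio of this class was 13.4 in place of 17.4. With classes taken from marker UMIs of each cell its log2 value was 3.47 in place of 4.12. Skeletal muscle-like cells (51, 58 and 43 cells) stood at 8.40, 80.0 and 30.9 CPM, with only 5, 26 and 9 UMIs behind those values. A single cell held 11 of the 26 in AA and another 7 of the 9 in AA+Ab, and without the richest cell these levels were 46.5 and 7.08 CPM.

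Among lymphocytes, T cell-like and gamma-delta T cell-like cells could be compared. T cell-like cells (121, 401 and 245 cells) had 78.8 CPM (62.2 to 98.5) in Neg, 230 CPM in AA and 118 CPM (100 to 137) in AA+Ab. A single AA cell with 60220 UMIs held 211 of the 514 AA UMIs of that class. It carried 13 *Cd3e* UMIs and 147 *Krt5* and *Krt14* UMIs, and was not called a doublet. Without that cell, the AA level was 139 CPM (124 to 156), the AA to Neg ratio 1.76 (1.37 to 2.30) in place of 2.91, and the AA+Ab to AA ratio 0.847 (0.695 to 1.03) in place of 0.513. Without the richest cell of each library these were 1.91 (1.47 to 2.51) and 0.760 (0.619 to 0.929). *Iigp1* in T cell-like cells fell from 104 to 23 AA UMIs when it was left out, and its AA level of 10.6 CPM (6.69 to 15.8) then did not differ from 8.19 CPM (3.54 to 16.1) in Neg. *Gbp7* was the most abundant of the 10 genes in these cells, at 24.6, 43.6 and 34.2 CPM without that cell. Gamma-delta T cell-like cells (165, 114 and 218 cells) had 53.7, 89.5 and 45.3 CPM and an AA to Neg ratio of 1.67 (1.16 to 2.39). *Iigp1* was counted there in 0, 1 and 0 UMIs. T cell-like cells, which held most *Ifng* UMIs, thus showed a smaller ratio of the GTPase sum than keratinocyte-like cells, a difference that was not tested. The T cell-like class also differed in make-up. Cells with a *Cd8a* or *Cd8b1* UMI and no *Cd4* UMI were 12 of 121 in Neg, 211 of 401 in AA and 63 of 245 in AA+Ab. The part of this in the ratios was not tested.

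**Figure D2:**
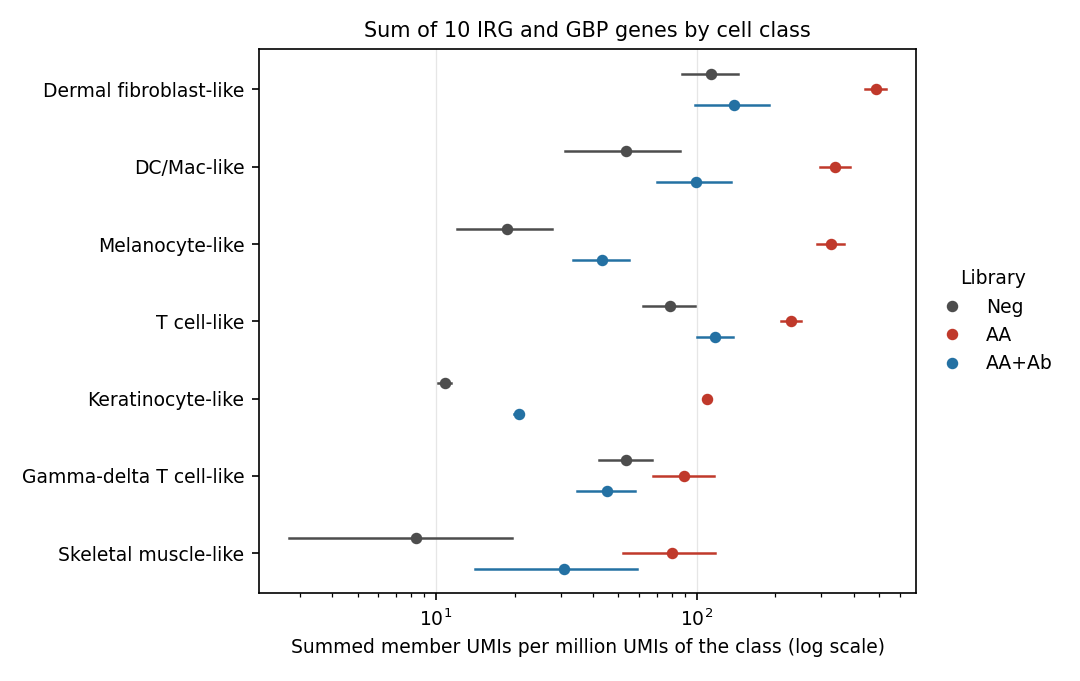
Summed level of the 10 genes by cell class and library, in CPM of the class on a log axis, for classes with at least 30 cells in each library; bars are exact Poisson 95% intervals. Keratinocyte-like cells rise from 10.8 to 109 CPM between Neg and AA; the AA point of T cell-like cells, 230 CPM, includes the single cell with 211 UMIs and is 139 CPM without it.

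Keratin RNA was counted in the other classes as well: *Krt5* and *Krt14* summed to 8008, 10067 and 8609 CPM in keratinocyte-like cells of Neg, AA and AA+Ab, and in AA to 2258 CPM in fibroblast-like cells, 3231 CPM in DC/Mac-like cells, 3621 CPM in T cell-like cells and 4076 CPM in skeletal muscle-like cells. In fibroblast-like, DC/Mac-like and melanocyte-like cells of AA the GTPase sum was above, and the keratin level below, that of keratinocyte-like cells. For skeletal muscle-like, gamma-delta T cell-like and dermal papilla-like cells of AA both levels were below those of keratinocyte-like cells. The part of free RNA was not tested in any class. Classes with under 30 cells in Neg, AA or both (endothelium, neutrophils, Langerhans cells, B cells, dermal papilla, satellite and sebaceous gland cells) were not compared with that library. Dermal papilla-like cells, 102 in AA and 67 in AA+Ab, stood at 79.7 and 36.8 CPM, but 21 of the 46 AA UMIs were in a single cell, and without the richest cell of each library the AA+Ab to AA ratio of 0.461 became 0.731 (0.365 to 1.42). Satellite-like cells, 43 and 120, stood at 139 and 67.5 CPM, a ratio of 0.486 that became 0.614 (0.348 to 1.11). Unnamed clusters, which held 4.56%, 2.03% and 1.89% of cells, had 5, 63 and 5 UMIs of the 10 genes, 35 of the 63 in a single cell.

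Within the keratinocyte-like cells the level of the GTPase genes varied. Among the classes, basal interfollicular epidermis-like cells had the highest level in AA, 18 CPM in Neg, 176 CPM (172 to 180) in AA and 45.9 CPM in AA+Ab, with an AA to Neg ratio of 9.75 (8.85 to 10.8). *Iigp1* had 10, 3772 and 409 UMIs in them, or 0.417, 92.2 and 16.5 CPM. Suprabasal cells stood lower, at 8.57, 73.1 and 16.1 CPM. Cycling cells stood at 7.38, 94.6 and 11.7 CPM, a class that joins unlike clusters, a cluster of 189, 306 and 329 cells at 26.9, 245 (232 to 258) and 33.2 CPM and a cluster of 451, 437 and 535 cells at 1.11, 13.7 and 1.21 CPM. Both clusters passed 5 of 5 cycling markers. The cluster at the higher level was led by *Anln*, *Ckap2*, *Diaph3* and *Aspm*, and that at the lower level by *Ntn1*, *Tmtc1*, *Sox5* and *Lgr5*. Keratinocyte-like cells without a finer name stood at 9.69, 109 and 15.2 CPM. Their clusters ranged in AA from 5.29 CPM, with *Tchh* and *Krt75* among the leading genes, to 253 CPM (239 to 268), with *Krt6a* among them. A cluster with *Krt35* and *Krt86* among its leading genes stood at 5.77 CPM in AA. A cycling cluster and a cluster without a finer name thus stood above the basal class in AA. The AA levels of these classes depended on how cells were clustered. With the listed genes kept in clustering, 243 AA cells with 6329 UMIs of the 10 genes formed a cluster of their own, and the basal clusters then stood at 57.7 and 64.6 CPM in AA. The suprabasal clusters stood at 38.2 and 95.6 CPM in AA in that clustering, the latter above both basal clusters. Outer bulge-like cells stood at 61.5 CPM there and the higher cycling cluster at 132 CPM, whereas inner root sheath-like cells stood at 15.8 CPM and a keratinocyte cluster without a finer name at 352 CPM (336 to 369). The log2 AA to Neg ratio of the basal class was then 1.92 in place of 3.29, its AA+Ab to AA ratio -1.36 in place of -1.94 and its AA+Ab to Neg ratio 0.56 in place of 1.35.

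In the hair follicle, upper follicle-like cells reached 140 CPM (127 to 153) in AA, from 13.2 CPM in Neg, and were at 18.8 CPM in AA+Ab. With the listed genes kept in clustering they stood at 72.5 CPM (63.4 to 82.5) in AA. Their log2 AA to Neg ratio of 3.40 was then 2.47, and 2.50 at resolution 0.4, and the log2 AA+Ab to AA ratio of -2.89 was -2.00 and -1.79. *Iigp1* there had 0, 119 and 2 UMIs, at least 68.8-fold higher in AA than in Neg, and 0, 31 and 0 UMIs with the listed genes kept in clustering, at least 19.3-fold higher. Outer bulge-like cells, the stem cell region, began higher at 20.2 CPM and rose to 62.8 CPM (58.0 to 67.9) in AA and 34.2 CPM in AA+Ab. Their ratios were 3.10 (2.58 to 3.76) for AA to Neg and 0.545 (0.481 to 0.617) for AA+Ab to AA. The named classes of the lower follicle were low, and the place in the skin of the clusters without a finer name was not determined. Hair matrix-like cells, which form the shaft and sheaths, stood at 4.68, 24.3 (22.0 to 26.8) and 6.01 CPM. Inner root sheath-like cells had 24 UMIs of the 10 genes in 182 Neg cells, 32 in 147 AA cells and 2 in 167 AA+Ab cells, or 4.60, 10.4 (7.09 to 14.6) and 0.558 CPM. The log2 AA to Neg ratio of this class was 1.17, and 2.49 at resolution 0.4, where its AA+Ab to Neg ratio turned from -3.04 to 0.21. *Gbp2* had 0, 2 and 0 UMIs in the inner root sheath-like cells. Whether the classes differ in their ratios was not tested, since no class has a replicate.

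**Figure D3:**
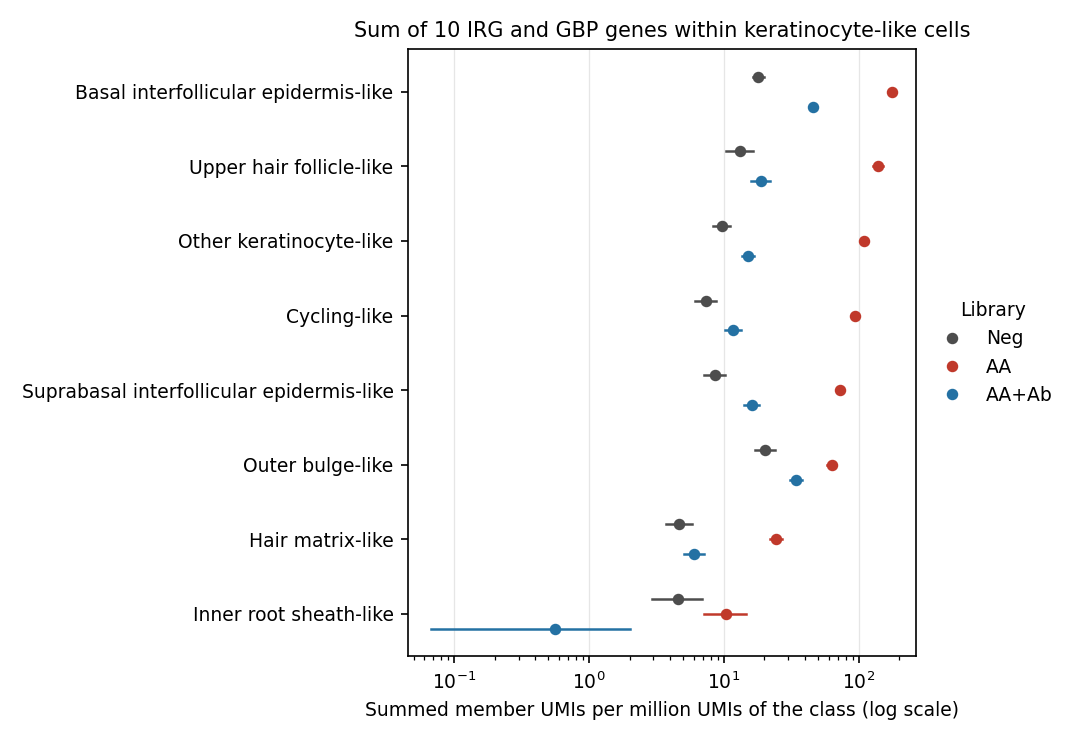
Summed level of the 10 genes in classes of keratinocyte-like cells with at least 30 cells in each library, in CPM of the class on a log axis; bars are exact Poisson 95% intervals. AA is highest in every class shown, from 10.4 CPM in inner root sheath-like to 176 CPM in basal interfollicular epidermis-like cells, and AA+Ab lies below Neg only in inner root sheath-like cells.

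UMIs of the 10 genes were unevenly spread over cells. At least 1 UMI of the 10 genes was found in 15.7% of Neg cells (14.8 to 16.6), 29.2% of AA cells (28.3 to 30.1) and 16.4% of AA+Ab cells (15.7 to 17.2). With each cell thinned to 1000 UMIs, which left out 290, 86 and 158 shallower cells, the shares were 1.78%, 7.39% and 2.79%. *Iigp1* was found in 0.501%, 8.12% and 1.30% of cells, and thinned in 0.0477%, 2.92% and 0.382%. No class was known to lack these genes. Among named classes outside the keratinocytes with at least 30 cells in each library, the lowest share was that of skeletal muscle-like cells, 7.84%, 15.5% and 6.98% at median depths of 4172, 2484 and 2169 UMIs. In inner root sheath-like cells it was 4.40%, 12.9% and 0.599% at median depths of 24268, 19655 and 20613 UMIs. Single UMIs were not read as expression of a cell. Cells with UMIs of 4 or more of the 10 genes were 15 in Neg, 399 in AA and 48 in AA+Ab, or 0.228%, 3.82% and 0.488%, and 350 of the 399 were keratinocyte-like, as were 87.8% of all AA cells. In AA, cells with 4 or more of the genes were 3.82% of keratinocyte-like, 15.7% of fibroblast-like and 16.1% of melanocyte-like cells. These few cells held 9.13%, 62.2% and 26.6% of all UMIs of the 10 genes, a share that grows with the level itself. The 1% of cells with most UMIs of the 10 genes held 25.0%, 37.5% and 39.6%.

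The genes went together within cells. Keratinocyte-like cells with an *Iigp1* UMI were 10 in Neg, 745 in AA and 98 in AA+Ab, and in them the other 9 genes summed to 216 CPM (167 to 276), 379 CPM (368 to 390) and 277 CPM (251 to 305). A single Neg cell held 31 of the 64 Neg UMIs, and without it the Neg level was 116 CPM (80.1 to 163). In keratinocyte-like cells without an *Iigp1* UMI they summed to 9.95, 26.6 and 13.0 CPM. Median depths were alike in AA, 12659 UMIs with and 11730 without *Iigp1*, and *Actb* stood at 2714 and 2472 CPM. The depths were 16874.5 and 14618.5 UMIs in Neg and 12784 and 12126 UMIs in AA+Ab. In each library the other GTPase transcripts were thus several times more abundant in keratinocyte-like cells with *Iigp1*, and most abundant in those of AA. Cells with more UMIs of any kind are more likely to show *Iigp1*, and the part of depth was not tested.

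Across 26 units of cell class and library, from 10 classes, the level of *Gbp6* (Pearson r 0.783), *Ddx60* (0.778) and *Gbp2b* (0.769) most resembled that of the summed GTPases among 17880 non-member genes compared on log2(CPM + 5). The units share libraries, and the T cell-like AA unit includes the cell described above, so these values describe likeness only. *Ddx60*, an RNA helicase gene outside every list used here, stood at 2.16 CPM in Neg, 7.03 CPM in AA and 2.58 CPM in AA+Ab.

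Apart from *Iigp1*, the genes lie in a few clusters of the genome. On mm10, *Irgm1*, *Tgtp1*, *Tgtp2* and *Ifi47* lie between chr11:48861968-48871683 and chr11:49076587-49096974, *Igtp* and *Irgm2* further along the same chromosome. *Gbp7* (chr3:142530342-142550149), *Gbp3* (chr3:142560026-142573209) and *Gbp2* (chr3:142620602-142638008) follow each other on chromosome 3, with *Gbp2b* between the last pair.

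Promoters were examined because these genes moved together. RefSeq promoters of GRCm38.p6 were matched for 9 of the 10 genes, *Iigp1* aside, and the 250 bases before each start were searched on both strands for the interferon-stimulated response element ISRE (GAAA, any 2 bases, GAAA). Of the 9 genes, 8 held a match and 1 held none, and 2.98% of all 32851 promoters of that length held one. Counted by start, as in that share, 8 of 10 starts held a match, and the other start of *Gbp3* held none. *Tgtp1* and *Tgtp2* are nearly identical copies, and the windows of *Igtp* and *Irgm2* are nearly alike around the match. The matches are therefore not separate, and the count was not tested against the share. The 120 bases before the start are shown for *Igtp*, *Irgm2* and *Tgtp2* as IRG genes with a match, for *Gbp7* as a GBP gene with the match on the other strand, and for *Ifi47* because it held none. Capitals mark ISRE matches. The regions are chr11:58199436-58199555 (plus strand) for *Igtp*, chr11:58214857-58214976 (plus) for *Irgm2*, chr11:49064213-49064332 (minus) for *Tgtp2*, chr3:142530216-142530335 (plus) for *Gbp7* and chr11:49076467-49076586 (plus) for *Ifi47*.
Igtp: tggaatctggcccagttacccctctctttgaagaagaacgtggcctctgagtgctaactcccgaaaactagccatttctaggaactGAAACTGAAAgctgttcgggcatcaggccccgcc
Irgm2: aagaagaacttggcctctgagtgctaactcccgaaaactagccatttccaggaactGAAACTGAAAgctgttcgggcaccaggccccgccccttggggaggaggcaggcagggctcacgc
Tgtp2: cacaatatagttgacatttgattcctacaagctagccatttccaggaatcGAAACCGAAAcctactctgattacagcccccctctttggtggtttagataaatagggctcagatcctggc
Gbp7: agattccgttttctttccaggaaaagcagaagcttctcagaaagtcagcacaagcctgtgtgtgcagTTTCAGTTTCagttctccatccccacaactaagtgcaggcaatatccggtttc
Ifi47: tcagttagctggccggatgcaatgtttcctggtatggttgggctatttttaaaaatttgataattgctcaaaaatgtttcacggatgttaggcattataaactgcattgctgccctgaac
A match describes letters in this window and is no measured binding site, and the absence of a match in *Ifi47* says only that these letters are not there.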

How the data were processed

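Single-cell RNA counts were measured in 3 libraries, 1 each for Neg, AA and AA+Ab. The authors checked reads with FastQC 0.11.7 and used Cell Ranger 7.2.0 on mm10 to make the deposited matrices, which hold a UMI count for each gene in each barcode. Barcodes with at most 10% mitochondrial UMIs and at least 200 genes were kept, doublets included; calling them at 0.8% per 1000 barcodes was an alternative. The 10 genes and the lists (other IRG and GBP family genes, interferon-γ signalling, interferon-γ-induced, type I interferon-induced, ATG8 conjugation and targeting, inflammasome and pyroptosis) were chosen with earlier results of these data known. From each list the 4 genes with most UMIs and the 4 with the largest change from Neg to AA are named; 1 gene so chosen is not reported here. Genes with at least 60 UMIs were called past 2-fold after adding 1 CPM. Simulated 4-fold changes were found in 100 of 100 raised and 100 of 100 lowered genes, with 0 of 17690 unchanged genes called. The changed genes had at least 1000 UMIs over the 3 libraries, and counts were drawn with counting error only. That rate does not extend to low-level genes or to spread between cells or libraries. *Tgtp1*, *Tgtp2* and *Gbp3*, with AA to Neg ratios of 29.0, 14.8 and 3.57, were not called past 2-fold after adding 1 CPM. Variation between libraries was not tested. Intervals are exact (Poisson for levels, conditional for ratios, Clopper-Pearson for shares). Cells were clustered (2000 variable genes with 105 list genes left out, 30 components, 20 neighbours, Leiden resolution 0.8) and each cluster was named when at least 3 markers, and 50% of a list, were in 25% of its cells and 2-fold above the others. These naming thresholds were set after the markers of the clusters had been seen. A cluster was also left unnamed for very low UMIs, or for low UMIs with no marker among its 10 leading genes. Keratinocyte clusters got no finer name when more markers of another class were among those genes. Positions are from GENCODE M21. Python 3.11.15, numpy 2.4.6, scipy 1.17.1, pandas 2.3.3, scikit-learn 1.9.0, scanpy 1.11.5, leidenalg 0.10.2 and matplotlib 3.10.9 were used.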

Additional observations from a re-analysis of the deposited data

Results flagged for a closer look

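In inner root sheath-like cells the summed level of the 10 genes was lower in AA+Ab than in Neg (log2 ratio -3.04), whereas in 10 of 14 compared classes it was higher. Without the richest cell of each library, 2 of the 10 did not differ from Neg beyond counting error, DC/Mac-like cells (ratio 1.53, 0.779 to 3.14) and skeletal muscle-like cells (1.16, 0.0969 to 10.1). Another of the 10, cycling cells (1.58, 1.26 to 1.99), joins clusters with ratios of 1.23 (0.973 to 1.57) and 1.09 (0.490 to 2.43), neither of which differed from Neg beyond counting error. A difference in direction between cell classes drew attention to it. The value rests on 2 UMIs in 1 of 167 AA+Ab cells against 24 UMIs in 8 of 182 Neg cells, 10 of them in a single cell, and it was 0.21 at resolution 0.4. The difference between classes was not tested.

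Barcodes left out by the mitochondrial and gene limits also held UMIs of the 10 genes, 22 in 383 Neg barcodes, 121 in 446 AA barcodes and 25 in 675 AA+Ab barcodes. A signal in data outside the comparisons drew attention to it. The AA to Neg log2 ratio there was 2.78, from 10.5 and 72.0 CPM, and AA+Ab stood at 10.7 CPM. Whether these barcodes differ from the kept cells was not tested.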

How the results depend on the processing

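Values here are log2 ratios of the summed level unless stated. For all cells, AA to Neg (3.11) stayed within its interval under 8 of 11 alternatives and was 2.74 with cells thinned to 1000 UMIs, 2.76 with cells weighted equally and 2.33 without *Iigp1*. AA+Ab to AA (-2.27) stayed within it under 6 of 11, and was -2.36 without doublets, -1.89 thinned, -1.98 with equal weights, -2.20 with class levels weighted to the class shares of Neg and -1.76 without *Iigp1*. AA+Ab to Neg (0.84) stayed under 10 of 11 and was 0.58 without *Iigp1*. In keratinocyte-like cells AA to Neg (3.34) was 3.20 and AA+Ab to AA (-2.39) was -2.21 with classes from marker UMIs of each cell, and the latter -2.49 without doublets. In T cell-like cells AA to Neg (1.54) and AA+Ab to AA (-0.96) were 1.95 and -1.40 at resolution 1.5, 0.75 and -0.50 with classes from marker UMIs, and 0.82 and -0.24 without the AA cell with most UMIs of the 10 genes. With the listed genes kept in clustering they were also 0.82 and -0.24: that cell, with 211 UMIs of the 10 genes, was the only 1 to leave the class and none joined it, so these are the same 400 AA cells and no separate alternative. In melanocyte-like cells AA to Neg (4.12) was 3.47 and AA+Ab to AA (-2.92) was -2.45 with classes from marker UMIs, and in dermal fibroblast-like cells AA to Neg (2.10) was 1.49 without doublets. Of 200 values by class, those of melanocyte-like and fibroblast-like cells among them and the others of keratinocyte-like, T cell-like and DC/Mac-like cells given apart, 166 stayed within their intervals, 19 moved nearer to 0 and 13 away from it. The sign of AA+Ab to Neg reversed in inner root sheath-like cells at resolution 0.4 (-3.04 to 0.21) and in skeletal muscle-like cells with classes from marker UMIs (1.88 to -1.33). It turned as well, from values whose intervals span 0, in hair matrix-like cells without doublets (0.36 to -0.66) and dermal fibroblast-like cells with classes from marker UMIs (0.29 to -0.23). Classes within the keratinocytes were not run with marker UMIs, nor were classes left with under 30 cells or 0 UMIs. DC/Mac-like cells stayed within their intervals under 6 of 6 alternatives for AA to Neg and AA+Ab to AA. Genes at least 2-fold higher in AA than in Neg (140) were 336 with 0.1 CPM added, 40 with 5 CPM and 545 at a fold of 1.5, and genes lower in AA+Ab than in AA (187) were 436, 64 and 796. Of the single genes, 53 of 59 AA to Neg values stayed within their intervals, 52 of 60 AA+Ab to AA values and 53 of 59 AA+Ab to Neg values. With cells thinned, AA+Ab to Neg reversed for *Igtp* (0.52 to -0.01) and *Ifi47* (1.14 to -0.04), the signs of *Tgtp2* (1.36 to -0.62), *Gbp3* (-0.10 to 0.38) and the sum of *Tgtp1* and *Tgtp2* (1.16 to -0.04), whose intervals span 0, turned as well, and *Tgtp1* gave no value against Neg, where it had 0 UMIs. Dermal fibroblast-like cells without doublets were not run for AA+Ab to AA, with under 30 cells. Leaving out *Iigp1*, the unnamed clusters or the richest cells was chosen after seeing the data. No paired analysis was possible because each group is 1 library, which leaves variation between mice, pools and runs unmeasured. Depth limits what can be seen of the rarest genes, such as *Tgtp1* with 3 UMIs in Neg.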

Other observations

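With the listed genes kept among those used for clustering, a keratinocyte-like cluster of 2 Neg, 243 AA and 23 AA+Ab cells was formed, led by *Iigp1*, *Gbp2b*, *Gbp2*, *Ifi27l2a* and *Ifi47*. It held 39, 6329 and 570 UMIs of the 10 genes. The cluster was formed by these genes themselves, so its levels are no separate measure of them.

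Barcodes just below the mitochondrial limit, with 8 to 10% mitochondrial UMIs, had 4 UMIs of the 10 genes in 116 Neg barcodes, 81 in 205 AA barcodes and 10 in 173 AA+Ab barcodes. Those just above it, with 10 to 12%, had 5, 30 and 15 UMIs in 72, 119 and 158 barcodes.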
